A study of Mus musculus with 2 samples.

Results

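The genes described here encode 8 liver-enriched transcription factors: Hnf4a and Hnf4g, Foxa1, Foxa2 and Foxa3, Onecut1 and Onecut2, and Cebpa. They were picked by name, as the genes whose probe sets on the array are annotated to that gene alone. The selection rule uses no measured value, but it was written with earlier results of these data known. All 8 were found, each with 1 probe set, among 30142 genes named in this way. Of the 8, 7 had a mean log2 signal above the floor of 4.76 used for counts over genes, and Hnf4g did not.

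These proteins keep hepatocytes in their differentiated state. HNF4A is a nuclear receptor that binds DNA as a homodimer and drives genes of lipoprotein, bile acid, glucose, urea and clotting factor metabolism. FOXA proteins open closed chromatin ahead of other factors, HNF6 (encoded by Onecut1) acts in bile duct formation and hepatocyte metabolism, and C/EBPα controls gluconeogenesis and nitrogen handling. The factors bind each other's promoters, so that in liver they are usually described as a network.

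Laser-captured liver tissue of PiZ mice gave the RNA. These mice are transgenic on a C57BL/6 background for the human Z mutant of alpha-1-antitrypsin (ATZ) under that human gene's promoter, and they form globules of the mutant protein in hepatocytes. The mice were 3 months old, untreated and on standard chow, in both groups. Areas with globules (globule-containing) and without them (globule-free) were picked by their look after Cresyl Violet staining, so both groups carry the transgene and there is no group without it. Each group is 1 array of RNA pooled from 2 mice, and the labels do not say whether the same mice gave both pools. The comparison asks how hepatocyte areas with globules differ from areas without them.

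With 1 array per group no test is possible and no difference below has a replicate check. Each value is a deposited log2 signal, each difference is globule-containing minus globule-free, and the values describe these arrays and not the spread between mice. A probe set was taken as above background when it passed the level that 95% of 1721 probe sets for odorant and vomeronasal receptors, silent in liver, stayed under. This level was 4.85 on the globule-containing and 5.04 on the globule-free array. In 177 genes that had 2 probe sets past the floor, these gave differences a median of 0.17 apart. Both probe sets were read on the same arrays, so this measures agreement between probe sets and not repeatability between arrays or mice.

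Hepatocyte RNA was present in both pools. All 11 hepatocyte markers with a probe set, among them Alb, Ttr and Apob, were above background on both arrays, and 3 of them were at the ceiling of the scale on both. Of the 11, 2 were lower by 2-fold or more, Cps1 at -2.37 and Tat at -1.41, and 0 higher by 2-fold or more. Fgb, a fibrinogen chain, differed by -0.87, Apoa1 by -0.80 and Apob by -0.15. Alb, at the ceiling on both arrays, gave 0.10, and Ttr, near it, gave -0.03, so a difference in these 2 could not be read. The median of the 11 was -0.15, and -0.77 without those at the ceiling. The 11 include Hnf4a itself, at -0.75, and several genes of the target lists below. Neither median is therefore a measure separate from the factors and their targets. Other cell types were not even between the arrays. Of 11 stellate cell markers above the floor, all 11 were higher by 2-fold or more in globule-containing areas, with a median difference of 2.43 and a summed log2 level of 15.70 against 12.40. Des, also on the stellate list, was below the floor and at or below background on both arrays, at 4.80 and 4.56. Of 10 markers of infiltrating myeloid cells, 8 were higher by 2-fold or more, with a median of 4.13 and a summed level of 18.29 against 13.21. Ly6c2, at 9.57 against 9.63, and Trem2, at 5.30 against 4.68 with the latter at background, were within 2-fold. Of 10 Kupffer cell markers, 5 were lower by 2-fold or more and 1 higher by 2-fold or more, with a summed level of 10.83 against 12.58. Endothelial markers had a median of -0.01, with none of 10 apart by 2-fold or more. Cholangiocyte markers lay low, with Krt7 and Cftr at or below background on both arrays and summed levels of 8.12 and 7.86. Of 9 lymphocyte markers, 7 were at or below background on both arrays. Of 9 periportal landmarks 8 were lower by 2-fold or more, with a median of -3.37. The 10 pericentral landmarks went both ways, with a median of 0.31. Among them Cyp2c37, at 8.71 against 12.77, and Ces1d, at 11.37 against 13.65, were lower by 2-fold or more, and Gulo, at 15.41 against 13.22, was higher by 2-fold or more. The part of these differences in the values of the transcription factors was not tested, and in pooled areas fewer cells of a type and less RNA per cell cannot be told apart.

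**Figure D1:**
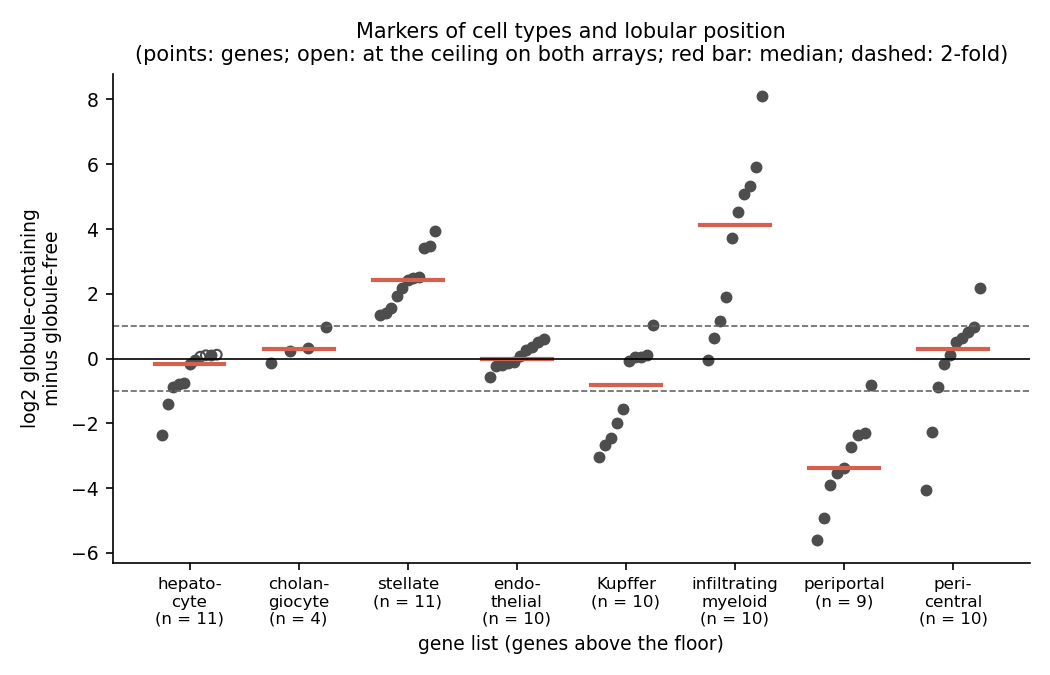
Log2 difference (globule-containing minus globule-free, y axis) of each marker gene above the floor (points), by cell type or lobular position (x axis). Open points are at the ceiling on both arrays, red bars are medians and dashed lines mark 2-fold. Stellate (median 2.43) and infiltrating myeloid markers (4.13), except Ly6c2 at -0.05, sit above 0 and periportal landmarks (-3.37) below it. Endothelial markers centre on -0.01.

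All 7 factors above the floor had a lower signal in globule-containing areas, by amounts that ran from near 0 to more than 4-fold. The lowest was Onecut1 and the next Foxa3, both lower by 2-fold or more, followed by Hnf4a and Cebpa at more than 1.5-fold. Foxa1, Foxa2 and Onecut2 differed by less than 1.2-fold. Thus 2 of 7 were lower by 2-fold or more and 0 higher by 2-fold or more, where 5.26% of 15023 genes above the floor were lower by 2-fold or more and 6.47% higher by 2-fold or more. At the 1.5-fold level 4 of 7 were lower, against 11.9% of all genes. The median over the 7 was -0.61, against 0.05 over all genes, and 45.5% of all genes were below 0.

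**Figure D2:**
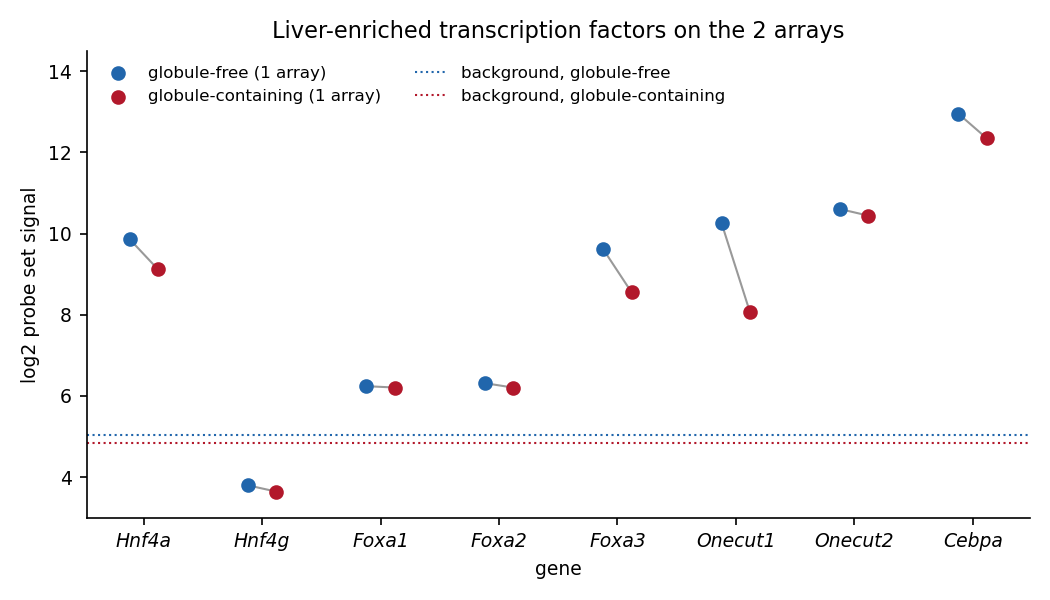
Log2 probe set signal (y axis) of each of the 8 genes (x axis) on the globule-free (blue) and the globule-containing array (red), 1 array each, with the background level of each array as a dotted line. Onecut1 shows the widest gap, 8.06 against 10.25, and Hnf4g lies below both background lines. Heights of different genes are not comparable, since each has its own probes.

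Hnf4a, the nuclear receptor at the centre of the network, had a log2 signal of 9.12 on the globule-containing and 9.86 on the globule-free array. It was therefore 1.68-fold lower, a difference of -0.75. Among all 15023 genes 8.57% had a difference at least as low, and among 984 genes of like brightness (mean signal within 0.5) 14.2% did. The gap is larger than the 0.17 between probe sets of 1 gene but lies well inside the range of differences at its brightness. Hnf4g, the paralog best known from intestine, had 3.65 and 3.80, below background on both arrays, so no fold is given for it.

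Hnf4a is transcribed from an upstream start (P2, used in fetal liver and pancreas) and a downstream start (P1, the main one of adult hepatocytes). The single probe set does not separate them. The bases before each start are shown because P2 holds a match to a binding site of HNF6, whose gene differed most here, and P1, the start used in adult liver, does not. Sequences here and below are from RefSeq (GRCm38.p6), 5′ to 3′ on the gene's strand, with matches in capitals.
Hnf4a upstream start (P2), chr2:163506607-163506810, plus strand: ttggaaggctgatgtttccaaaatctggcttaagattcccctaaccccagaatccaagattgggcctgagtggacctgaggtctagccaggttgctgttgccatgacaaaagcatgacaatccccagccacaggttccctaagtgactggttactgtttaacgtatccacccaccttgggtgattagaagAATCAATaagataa
Hnf4a downstream start (P1), chr2:163546905-163547154, plus strand: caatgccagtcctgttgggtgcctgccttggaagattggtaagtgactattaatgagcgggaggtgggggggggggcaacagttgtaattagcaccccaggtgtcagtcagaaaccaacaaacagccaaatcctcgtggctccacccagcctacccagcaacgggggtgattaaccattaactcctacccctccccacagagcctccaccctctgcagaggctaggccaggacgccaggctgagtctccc
In P2 the letters AATCAAT, at -60 to -54 from the start, matched the HNF6 pattern ATTGATT on the other strand. The window before P1 held none of the 4 patterns searched, which were those of HNF4, HNF6, FOXA and C/EBP. Of 32851 windows of 250 bases before a gene start, searched on both strands, 2.61% held the HNF6 pattern. The patterns were chosen with these promoters in view, and a match is a description of the letters and no evidence of binding. The stretch printed for P2 ends 46 bases short of its start, where another annotated transcript begins.

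Hnf4aos, a long noncoding RNA whose gene overlaps Hnf4a, is named by a probe set that also carries the symbol 0610008F07Rik. Its signal of 3.88 against 4.22 was below background on both arrays. R3hdml, the nearest gene before Hnf4a in RefSeq, was also below background on both, at 4.16 and 4.27.

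Of the FOXA genes, Foxa3 differed and its paralogs hardly did. Foxa3, the FOXA gene most prominent in adult hepatocytes, had 8.55 on the globule-containing and 9.61 on the globule-free array. It was 2.09-fold lower, a difference of -1.06, just past the 2-fold level. Of all genes 4.77% were at least as low, and of 1111 genes of like brightness 7.83%. Foxa1 had 6.21 against 6.24, and Foxa2 had 6.21 against 6.32. Their differences of -0.03 and -0.11 were smaller than the 0.17 between probe sets of 1 gene. Both signals sat little more than 1 unit above background, where a difference is measured with less room than for Foxa3.

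The window before Foxa3 held none of the 4 patterns searched, and that before the most upstream start of Foxa2 held 1. They are shown as a pair of paralogs of which 1 was lower by 2-fold or more and the other was not.
Foxa3, chr7:19023540-19023789, minus strand: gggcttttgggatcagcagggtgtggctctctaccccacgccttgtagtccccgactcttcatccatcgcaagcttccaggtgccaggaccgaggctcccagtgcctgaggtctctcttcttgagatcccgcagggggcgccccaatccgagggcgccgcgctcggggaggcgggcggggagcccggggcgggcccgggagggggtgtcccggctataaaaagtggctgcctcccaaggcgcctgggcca
Foxa2 most upstream start, chr2:148046970-148047219, minus strand: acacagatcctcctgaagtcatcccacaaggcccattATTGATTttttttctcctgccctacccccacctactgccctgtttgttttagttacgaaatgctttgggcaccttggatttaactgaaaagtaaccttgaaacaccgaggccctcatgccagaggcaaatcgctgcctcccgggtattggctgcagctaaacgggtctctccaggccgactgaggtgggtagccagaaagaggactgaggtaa
The capitals in Foxa2 are ATTGATT, the HNF6 pattern. The pattern of FOXA itself, TGTTTAC, was found in the window listed for Foxa1, which lies inside the annotated gene, and in 3.17% of all windows.

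The long noncoding gene 9030622O22Rik, which lies next to Foxa2 in RefSeq, had 6.26 against 7.35 and was 2.12-fold lower, unlike Foxa2 itself at 1.08-fold. Its difference of -1.09 was about that of Foxa3. The genes on either side of Foxa3 did not share its difference: Irf2bp1 had 5.07 against 5.05, and Sympk, at 7.25 with globules, differed by 0.25.

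Onecut1, which encodes HNF6, had the widest difference of the 8 genes. Its signal was 8.06 on the globule-containing and 10.25 on the globule-free array, 4.57-fold lower. Of all genes above the floor 1.05% were at least as low, and of 1103 genes of like brightness 1.63%. Onecut2, which encodes a close paralog that overlaps with HNF6 in liver development, had 10.44 against 10.60, a difference of -0.16. The paralogs thus parted by 2.03 on the log2 scale. Fam214a, the next gene after Onecut1, had 9.03 against 9.62, and the lncRNA gene before it, Gm16551, was below background on both arrays.

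Before Onecut1 none of the 4 patterns was found in a window rich in G and C, at 71.6% of its bases. It is shown as the promoter of the gene that differed most.
Onecut1, chr9:74861671-74861920, plus strand: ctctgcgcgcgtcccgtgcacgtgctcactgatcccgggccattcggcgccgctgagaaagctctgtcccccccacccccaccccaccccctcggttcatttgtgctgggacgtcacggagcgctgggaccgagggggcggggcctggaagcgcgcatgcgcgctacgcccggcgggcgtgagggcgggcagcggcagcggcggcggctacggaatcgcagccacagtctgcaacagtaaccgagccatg

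Cebpa, which encodes the leucine zipper factor C/EBPα, had 12.34 on the globule-containing and 12.95 on the globule-free array. It was 1.52-fold lower, a difference of -0.61. Of all genes 11.3% were at least as low, and of 322 genes of like brightness 20.8%. Its relatives among the other factors were not lower to the same extent: Cebpb, of the acute phase, differed by -0.24, Cebpd by 0.01 and Cebpg by 0.56, and Cebpe of myeloid cells was below background on both arrays. The window before Cebpa holds the letters TTGCGCCA at -185 to -178, a match to the C/EBP pattern TTGCGNNA, which 2.94% of all windows hold. It is shown because mouse C/EBPα is known to act on its own promoter.
Cebpa, chr7:35119043-35119292, plus strand: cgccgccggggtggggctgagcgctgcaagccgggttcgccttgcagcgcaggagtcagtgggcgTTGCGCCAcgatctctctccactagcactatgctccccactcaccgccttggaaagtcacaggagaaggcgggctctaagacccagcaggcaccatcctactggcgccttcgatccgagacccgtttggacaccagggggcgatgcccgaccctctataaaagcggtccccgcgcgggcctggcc

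**Figure D3:**
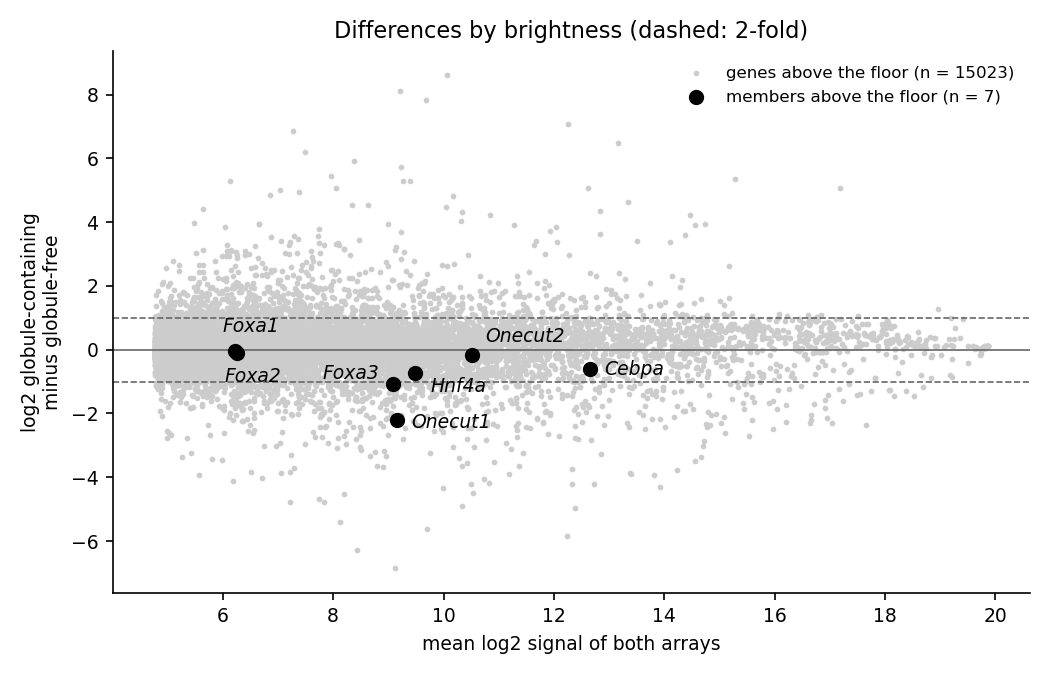
Log2 difference (globule-containing minus globule-free, y axis) against the mean log2 signal of both arrays (x axis) for 15023 genes above the floor (grey) and the 7 members above it (black); dashed lines mark 2-fold. Onecut1 at -2.19 lies in the lower tail of the cloud, with other genes of like brightness further down. Foxa3 at -1.06 lies just past the 2-fold line, and Foxa1 and Foxa2 on the 0 line.

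The genes of all lists used here whose difference was nearest to that of Hnf4a were 3 other transcription factors and 2 of its listed targets. Out of 153 genes compared, by the gap between single differences over these 2 arrays, Rxra, the shared partner of many nuclear receptors, was nearest at -0.76. F12, coagulation factor XII, followed at -0.76, Creb3l3, a membrane-bound liver factor, at -0.72, Hlf, a clock output factor, at -0.71, and Apoa1, the main protein of high-density lipoprotein, at -0.80. A likeness in 1 difference is a weak measure.

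Other transcription factors and cofactors of liver were more often lower than higher. Of 34 listed, 28 were above the floor, and 5 were lower by 2-fold or more, 2 higher by 2-fold or more and 21 within 2-fold. Their median was -0.40, and 20 of 28 were below 0. Of all genes above the floor, 5.26% were lower and 6.47% higher by 2-fold or more, and 45.5% were below 0. The 2 higher of 28 are thus near the share of all genes. The lists here were written from textbook knowledge with earlier results of these data known, so their counts are a description.

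The lower 5 were a coactivator, 3 nuclear receptors and a clock factor. Ppargc1a, the coactivator of HNF4A in gluconeogenesis, had 7.03 against 9.07 and was 4.11-fold lower. Nr0b2, the small heterodimer partner that represses HNF4A and is induced by bile acids, had 7.40 against 9.30, 3.72-fold lower. Nr1i3, the xenobiotic receptor CAR and a listed target of HNF4A, had 8.65 against 10.16, 2.84-fold lower. Ppara, the fatty acid receptor, was 2.80-fold and Dbp, a circadian output factor, 2.60-fold lower.

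The higher 2 were Atf5 and Gata6. Atf5, a stress-response factor enriched in liver, had 8.19 against 6.56 and was 3.10-fold higher. Gata6, a zinc finger factor of early liver, had 7.63 against 6.43, 2.29-fold higher, and is also expressed by stellate and other non-hepatocyte cells. Nr2f2, which encodes COUP-TFII and binds the same direct repeats as HNF4A, had 7.24 against 6.49, within 2-fold. Values of Nr5a2, Prox1, Hhex and Nr1h4 lay between -0.65 and -0.32, and those of Foxo1 and Klf15 at -0.01 and -0.22.

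**Figure D4:**
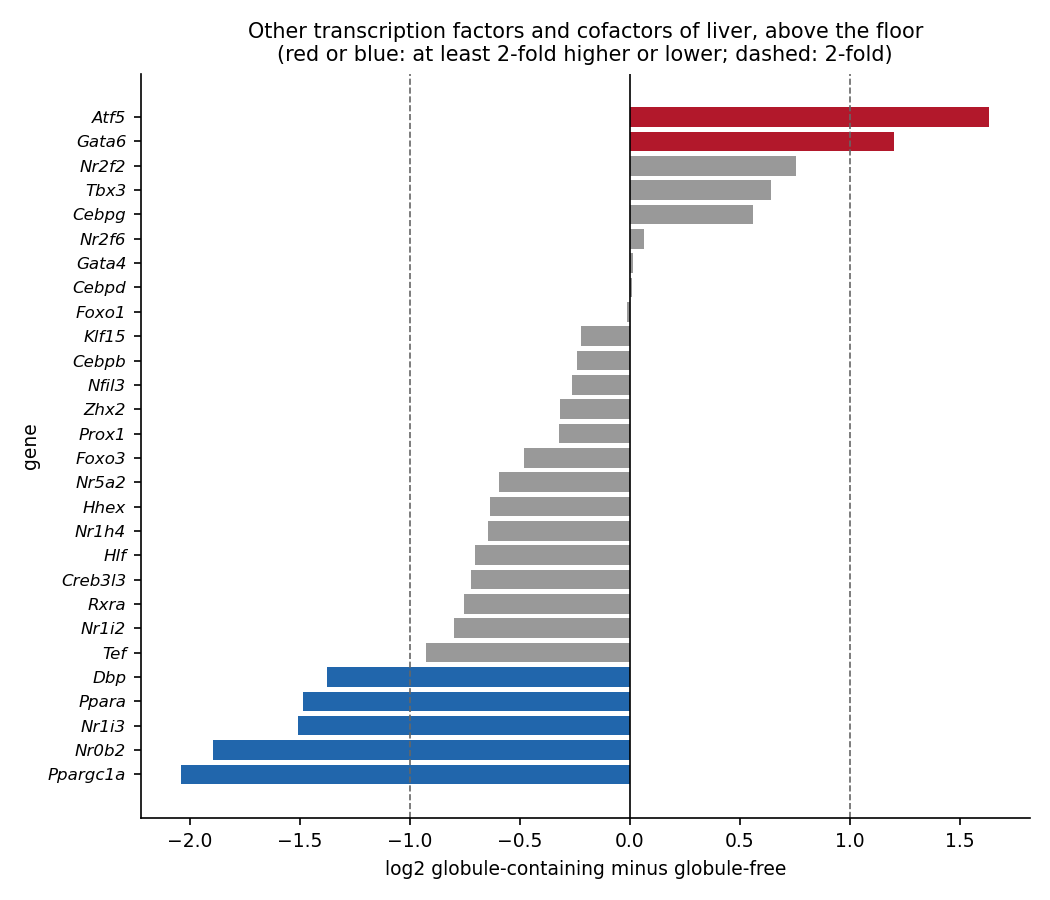
Log2 difference (globule-containing minus globule-free, x axis) of the 28 other liver factors and cofactors above the floor (y axis), as bars from 0. Blue bars are lower by 2-fold or more (5 genes, Ppargc1a lowest at -2.04), red bars higher by 2-fold or more (Atf5 and Gata6) and grey bars within 2-fold. Gata4 was at or below background on both arrays.

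Genes that HNF4A is known to activate were mostly lower, with a wide spread. Of 33 listed, 29 had a value above the floor. Of these 14 were lower by 2-fold or more, 1 higher by 2-fold or more and 14 within 2-fold, and 24 were below 0. Their median was -0.98, against 0.05 over all genes. The shares to set beside this and the other target lists are 5.26% of all genes lower and 6.47% higher by 2-fold or more. Many targets are bright, and bright genes were more often apart. At a mean signal of 10 or more, 146 of 1039 genes without the HNF4 pattern were lower by 2-fold or more and 109 higher. No target list was set as a whole beside genes of like brightness.

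The lowest were genes of bile acids, lipoprotein and glucose output. Cyp8b1, the sterol 12-alpha-hydroxylase, had 5.29 against 11.57 and was 77.9-fold lower, with the globule-containing value close to background. Slc10a1, the bile acid importer of hepatocytes, had 11.77 against 16.08, and Apom, an apolipoprotein that carries sphingosine phosphate, had 10.21 against 14.44. G6pc, glucose-6-phosphatase, had 8.65 against 12.19, 11.7-fold lower. These 4 genes lay further apart than any of the 8 factors.

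Not all targets were lower. Dio1, the thyroid hormone deiodinase, had 9.41 against 7.16 and was 4.75-fold higher. Cyp27a1, the sterol 27-hydroxylase, had 14.08 against 13.13, within 2-fold, and Slco1b2, an organic anion importer, had 16.61 against 16.31. Cyp3a11, a drug-metabolising cytochrome P450, had 19.11 against 19.02, near the ceiling. Both arrays had Apoa2 at the ceiling and Ttr near it, at 19.72 and 19.75, so a difference in such abundant RNAs could not be read.

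Of 26 listed HNF4A targets with a RefSeq window, 7 held the HNF4 pattern CAAAGNNCA, in 7 of 29 windows (24.1%), where 5.49% of all 32851 windows did. The 7 were Apoa4, Apob, Cyp3a11, Cyp8b1, F7, F9 and G6pc. Of these 4 were lower by 2-fold or more, with a median of -1.30. Of 17 targets above the floor whose windows lacked the pattern, 9 were, with a median of -1.01. HNF6 targets held the HNF6 pattern in 3 of 12 windows (those of Hnf4a, Foxa2 and Slc2a2), against 2.61% of all windows. Hnf4a and Foxa2 are members, and the patterns were chosen with the Hnf4a promoters in view, so this count is no independent result. FOXA targets held that of FOXA in 0 of 10 windows and C/EBPα targets that of C/EBP in 0 of 8. Over all windows these shares were 3.17% and 2.94%, so such small sets cannot show a difference between the lists. Cyp8b1 and G6pc are shown, as the HNF4A targets with a match that differed most.
Cyp8b1, chr9:121916306-121916555, minus strand: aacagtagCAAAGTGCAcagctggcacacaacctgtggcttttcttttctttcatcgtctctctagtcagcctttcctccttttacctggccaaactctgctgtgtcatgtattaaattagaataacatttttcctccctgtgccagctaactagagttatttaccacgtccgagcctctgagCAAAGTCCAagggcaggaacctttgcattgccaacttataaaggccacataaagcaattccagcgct
G6pc, chr11:101367466-101367715, plus strand: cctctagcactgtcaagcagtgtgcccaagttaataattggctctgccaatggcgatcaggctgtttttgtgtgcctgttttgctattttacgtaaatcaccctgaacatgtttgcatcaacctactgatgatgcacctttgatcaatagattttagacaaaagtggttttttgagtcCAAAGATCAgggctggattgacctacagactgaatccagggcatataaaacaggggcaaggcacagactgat
Cyp8b1 held matches at -242 to -234 (CAAAGTGCA) and at -67 to -59 (CAAAGTCCA), the latter the sequence preferred by HNF4 over other nuclear receptors. G6pc held CAAAGATCA at -72 to -64.

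Known FOXA targets split. Of 14, 4 were lower by 2-fold or more and 2 higher by 2-fold or more, with a median of -0.10. Besides G6pc, Pck1, the gluconeogenic enzyme PEPCK, had 14.17 against 16.89, Cps1, the first enzyme of the urea cycle, 16.48 against 18.85, and Tat, tyrosine aminotransferase, 16.79 against 18.20. Igfbp1, the insulin-repressed binding protein of IGF, went the other way, with 12.29 against 7.81 and a 22.4-fold higher signal. Abcc3, a basolateral exporter of bile salts, had 10.85 against 8.96, 3.69-fold higher. Abcb11, the canalicular bile salt pump, and Abcc2 differed by 0.10 and -0.01. Alb and Trf were at the ceiling on both arrays. With differences of such genes left out the FOXA median was -0.48.

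Of the HNF6 targets 7 had a value, among them Hnf4a and Foxa2, which are members. All 7 were below 0, 2 lower by 2-fold or more, with a median of -0.75, which is the value of Hnf4a itself. Of the 7, Ttr was near the ceiling, and Foxa2 at -0.11 differed by less than the 0.17 between probe sets of 1 gene. G6pc and Pck1 were the lowest, and Slc2a2, the glucose transporter GLUT2, had 11.98 against 12.82. Of 11 C/EBPα targets 7 were lower by 2-fold or more and 0 higher, with a median of -1.41. They include G6pc, Pck1, Cps1 and Otc, ornithine transcarbamylase of the urea cycle, which had 13.81 against 15.87. Hamp, the iron hormone hepcidin, was at the ceiling on both arrays.

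The 4 target lists are not independent. The HNF4A list shared 5 genes with the FOXA list, 4 with the HNF6 list and 6 with the C/EBPα list. The FOXA list shared 6 of its 14 genes with the C/EBPα list and 4 with the HNF6 list. The HNF6 and C/EBPα lists shared 3. G6pc and Pck1 are on all 4 lists. Taken as 1 list without the members, 41 targets were above the floor, of which 16 were lower by 2-fold or more and 3 higher by 2-fold or more, with a median of -0.76. Several are also periportal landmarks, which were lower as a group. Without these the HNF4A median was -0.80 over 27 genes, with 12 lower by 2-fold or more. The C/EBPα median without them was -0.96 over 8 genes, with 4 lower by 2-fold or more. The HNF6 median was -0.55 over 5 genes, the members Hnf4a and Foxa2 among them, with 0 lower by 2-fold or more. The balance of FOXA targets turned: without the landmarks 1 of 11 was lower by 2-fold or more and 2 were higher by 2-fold or more, with a median of -0.01.

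**Figure D5:**
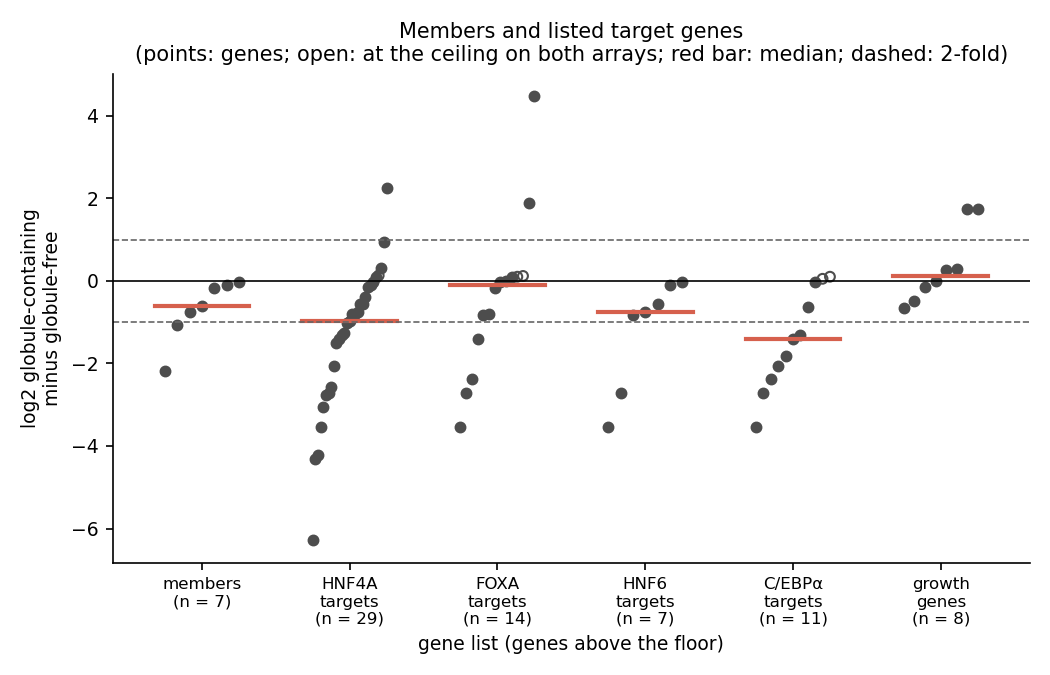
Log2 difference (globule-containing minus globule-free, y axis) of the 7 members above the floor, of listed targets of each factor and of growth genes (x axis); points are genes, open points are at the ceiling on both arrays, red bars are medians and dashed lines mark 2-fold. HNF4A targets reach from -6.28 (Cyp8b1) to 2.25 (Dio1), and the highest FOXA target is Igfbp1 at 4.48.

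Growth genes that HNF4A is known to restrain showed no common direction. Of 8 above the floor 2 were higher by 2-fold or more and 0 lower, with 4 above and 4 below 0. Over all genes the shares were 6.47% higher and 5.26% lower by 2-fold or more. Myc, the growth factor-induced oncogene, had 8.23 against 6.49, and Jun, an immediate early factor, had 8.23 against 6.50, each 3.33-fold higher. Mki67, a marker of dividing cells, had 7.02 against 6.76, and Birc5 had 5.29 against 4.99, the latter at background. Egr1 differed by -0.65, Cdk1 by -0.50, Top2a by -0.15 and Ccna2 by -0.02. Ccnd1, left out of the 8 because its probe set also names Mir3962, had 8.60 against 9.42, a difference of -0.82. Foxm1, left out for the same reason, had 4.51 against 4.65, below background on both arrays. The higher 2 are early response factors, but Egr1, another of these, was not higher, and genes of DNA replication and mitosis were within 2-fold.

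Of the known regulators of Hnf4a, none above background on both arrays was apart by 2-fold or more. Snai1, a repressor of Hnf4a in epithelial to mesenchymal transition, was below background on both arrays, and Snai2 had 9.14 against 8.79. Prkaa1 and Prkaa2, the catalytic subunits of AMP kinase, had 7.53 against 6.85 and 10.18 against 10.40. Src, a kinase that phosphorylates HNF4A, had 5.44 against 4.95, the latter at background. The coactivators Ep300 and Crebbp differed by 0.18 and 0.10. The probe set of the microRNA gene Mir24-2 had 5.49 against 4.37, at least 1.37-fold higher since the globule-free value was at background, and that of Mir34a was below background on both. Both microRNAs are known to target HNF4A RNA. The array reads the hairpin gene and not the mature form, which for miR-24-3p is shown with its seed (bases 2 to 8) in capitals, from RefSeq at chr8:84208875-84208896, plus strand.
mmu-miR-24-3p: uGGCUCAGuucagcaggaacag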

How the data were processed

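The deposited values are log2 signals of 72688 probe sets. They were made with the Transcriptome Analysis Console, per the submitters' processing notes. Neither its version nor the background correction, normalization or build is given in the sources used here. The log2 scale was read from the deposited values, which reach 19.93 and 19.80, and values within 0.2 of each maximum were taken as the ceiling. Both medians were similar, at 4.40 (globule-containing) and 4.49 (globule-free).

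Genes were named from the platform annotation: 30604 probe sets name 1 gene, 2146 several and 39938 have none listed here. Of those, 22818 matched a RefSeq gene (GRCm38.p6) by Entrez ID. Probe sets of 1 gene were averaged. The floor is the median brightness, which left 15023 genes. Members and lists were chosen with earlier results of these data known. Named genes are all members, every other factor at least 2-fold apart, the 4 furthest targets in each direction below the ceiling, regulators, antisense partners and nearest neighbours. A few others, such as Nr2f2, Cebpb and Prox1, were named after their values were seen. The calling of genes at least 2-fold apart was tested on simulated data with large planted shifts. Each simulated gene had 1 probe set, so averaging was not exercised. Precision is limited by the number of arrays. Work was done in Python 3.11.15 with pandas 2.3.3, numpy 2.4.6 and statsmodels 0.14.6.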

Additional observations from a re-analysis of the deposited data

How the results depend on the processing

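Over 9 planned settings and 1 added after the data were seen, 125 values were recomputed; 110 moved by less than the 0.17 between probe sets of 1 gene (counts, by less than 1.5 times) and 15 by more. Part of the 110 could not move. Each listed gene with a value has 1 probe set, so taking the brightest probe set changed none of these results. No member is named by a probe set of several genes, so including such probe sets left the members' differences as they were. Raising dim values to background likewise could not change members above background. Hnf4a, Foxa3 and Onecut1 ranged from -0.87 to -0.75, -1.17 to -1.06 and -2.30 to -2.19, and every member stayed below 0. After quantile normalization Cebpa was -0.80, the members' median -0.80 and the C/EBPα target median -1.71. After loess correction these were -0.82, -0.82 and -1.66. With dim values raised to background, which also drops genes at the ceiling, the FOXA target median was -0.48 and the C/EBPα one -1.81. With the floor at the 75th percentile the other factors had a median of -0.63 and the growth genes 1.73, since fewer genes were left. With no floor, which brings in Hnf4g, the members' median was -0.39. At 1.5-fold 4 members were lower instead of 2. Without periportal landmarks, the added setting, the HNF4A, FOXA, HNF6 and C/EBPα target medians were -0.80, -0.01, -0.55 and -0.96. The growth gene median of 0.12 was -0.02 with probe sets naming several genes included. Of genes at least 2-fold apart 44.8% were lower, and 55.6% with both arrays at the same median, which moved the median of all genes from 0.05 to -0.06, a shift of -0.10. No paired analysis was possible because each group has 1 array and no fit. Signals near background (Foxa1, Foxa2, Hnf4g) and at the ceiling limit what can be read.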

Other observations

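The 4 patterns were also searched before all genes above the floor that have a RefSeq window, as a description added after the values were seen. For the HNF4 pattern, 61 of 557 genes with a match were lower by 2-fold or more in globule-containing areas, against 437 of 8508 (5.14%) without. For the HNF6 pattern the shares were 12.6% of 199 against 5.33%. For the FOXA pattern they were 7.66% of 274 against 5.43%, and for the C/EBP pattern 5.60% of 464 against 5.49%. Genes with the HNF4 pattern were also more often higher by 2-fold or more, 7.54% against 6.32%, and the medians were -0.04 and 0.04. The shares higher by 2-fold or more were 5.03% against 6.43% for HNF6 and 6.20% against 6.40% for FOXA. For C/EBP they were 6.47% against 6.39%. At a mean signal of 10 or more, the shares lower by 2-fold or more were 34.7% against 14.1% for HNF4 and 45.2% against 14.8% for HNF6. For C/EBP they were 16.7% against 15.8%, while for FOXA they were 4 of 40 against 177 of 1100 (16.1%). Among the dimmer genes the counts lower by 2-fold or more were 26 of 456 (5.70%) against 291 of 7469 for HNF4. They were 6 of 157 (3.82%) against 311 of 7768 for HNF6 and 16 of 404 (3.96%) against 301 of 7521 for C/EBP. For FOXA they went the other way from the bright genes, with 17 of 234 (7.26%) against 300 of 7691. Of the dimmer genes with the HNF4 pattern more were higher by 2-fold or more than lower, 39 of 456, against 429 of 7469 without it. Among the bright genes 3 of 101 with it were higher by 2-fold or more, against 109 of 1039. The stricter HNF4 pattern CAAAGTCCA was held by 51 genes, of which 10 (19.6%) were lower by 2-fold or more, against 5.41% of 9014 genes without it.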
